A study of Mus musculus with 3 samples.

Results

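The Dlk1-Dio3 imprinted domain of mouse chromosome 12 was examined in 3 Capture Hi-C (CHi-C) libraries, Samples 3, 4 and 5. Hi-C joins DNA fragments that lie close together in the nucleus, and a di-tag is the read pair from such a junction. In CHi-C the junctions that hold selected fragments are then enriched by hybridisation. All 3 libraries carry the cell type label embryonic stem cells and the strain label C57BL/6, with no treatment and no second group. The source label of Sample 3 reads foetal liver cells instead, which goes against the cell type given for the same library and against the study's methods. The sources used here do not give the fragments selected by the capture, and no marker of cell type can be read from di-tags.

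The domain was taken as chr12:110650000-111550000 (mm9), a span of 900 kb. A di-tag was a member where at least 1 of its ends lay in this span, in the lists from which the authors had removed duplicates. Sample 3 had 10980 such di-tags of 9376907, Sample 4 had 10853 of 8596799 and Sample 5 had 11028 of 8821161. Of the 6 member genes, Dlk1 was represented by the window chr12:110680000-110700000, Meg3 by chr12:110770000-110810000 and Dio3 by chr12:111500000-111530000. Rtl1, Rian and Mirg lie in this order between Meg3 and Dio3 in RefSeq (GRCm38.p6). No mm9 gene table was used here, so no window was given to them and their values are those of the interval chr12:110810000-111499999. Sample 3 stood apart from the other libraries in the distances of its cis di-tags (ends on the same chromosome), and the main results are given for each library, so that they can be read with and without it.

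Imprinted genes are expressed from the copy inherited from 1 parent. In this domain the protein-coding genes are expressed mainly from the paternal chromosome. Dlk1 encodes a transmembrane ligand related to those of the Notch pathway, Rtl1 derives from a retrotransposon and is needed in the placenta, and Dio3 encodes the enzyme that inactivates thyroid hormone. Meg3, Rian and Mirg are non-coding RNAs of the maternal chromosome, Rian hosts small nucleolar RNAs, and Mirg hosts microRNAs. RefSeq (GRCm38.p6) places 57 microRNA hairpins between Meg3 and Dio3. A differentially methylated region between Dlk1 and Meg3 controls the imprint in cis. The di-tags carry no allele information, so the parental chromosomes cannot be told apart in any value given here.

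The chromatin was cut with HindIII, so an end can only be recovered near an AAGCTT site. RefSeq held promoter sequence for 5 of the 6 genes, with no entry for Rtl1. The 250 bases before the start of Dlk1, of the lower-coordinate entry of Meg3 and of Dio3 are shown because these genes define the anchors of the contacts, with AAGCTT in capitals (GRCm38.p6, plus strand, 5′ to 3′).
Dlk1: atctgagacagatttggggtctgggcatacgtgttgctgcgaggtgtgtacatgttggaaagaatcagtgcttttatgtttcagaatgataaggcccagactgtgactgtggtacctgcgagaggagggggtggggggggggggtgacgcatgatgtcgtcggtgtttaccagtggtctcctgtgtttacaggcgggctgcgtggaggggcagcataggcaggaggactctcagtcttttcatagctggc
Meg3: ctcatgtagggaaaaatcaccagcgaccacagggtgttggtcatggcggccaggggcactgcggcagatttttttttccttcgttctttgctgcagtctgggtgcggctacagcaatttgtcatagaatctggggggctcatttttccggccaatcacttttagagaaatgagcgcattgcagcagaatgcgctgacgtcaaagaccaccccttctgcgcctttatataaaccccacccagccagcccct
Dio3: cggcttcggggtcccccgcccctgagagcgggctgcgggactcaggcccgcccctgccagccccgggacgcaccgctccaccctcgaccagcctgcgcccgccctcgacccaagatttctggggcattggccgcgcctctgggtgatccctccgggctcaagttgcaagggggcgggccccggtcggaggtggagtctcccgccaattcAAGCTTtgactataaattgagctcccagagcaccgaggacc

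Only the sequence of Dio3 among these 3 held the site, with its first base 41 bases before the start. AAGCTT reads the same on both strands, and 6.22% of all 32817 promoter sequences of this length held it. The Dio3 sequence had 21 CG dinucleotides, the Dlk1 sequence 8 and the Meg3 sequence 10, against a median of 6 over all of them. No match says only that these letters are not in the 250 bases.

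The domain held a similar share of each library. It was 0.117% of the di-tags in Sample 3 (95% Clopper-Pearson interval 0.115 to 0.119), 0.126% in Sample 4 (0.124 to 0.129) and 0.125% in Sample 5 (0.123 to 0.127), with a mean of 0.123% ± 0.005 (SD, n = 3). Sample 3 was below the others, and its interval did not overlap theirs. These intervals, like all others given here, cover counting error within a library only and leave out the spread between libraries. They treat di-tags as independent, although these are PCR products without molecular identifiers. Samples 3, 4 and 5 had on average 139, 147 and 146 ends in a covered 10 kb region of the domain, which was 1.94 ± 0.14 times (SD, n = 3) the mean of all covered regions of the same library.

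This coverage was concentrated in a single block next to Meg3. Regions were called highly covered in a library where they were among the 10% most covered in both of the other libraries. In the domain this held for 21 of 85 covered regions in Sample 3, 18 in Sample 4 and 18 in Sample 5, or 24.7%, 21.2% and 21.2%, against 9.07%, 8.13% and 8.26% of all covered regions. All but 1 of the 18 that were highly covered in every library lay within chr12:110790000-110999999, a stretch of 210 kb that starts in the Meg3 window and runs into the interval towards Dio3. The exception was the middle region of the Dio3 window. The block held 61.3%, 60.5% and 62.3% of the domain's ends in Samples 3, 4 and 5. It was delimited by its coverage, so this share is a description.

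**Figure D1:**
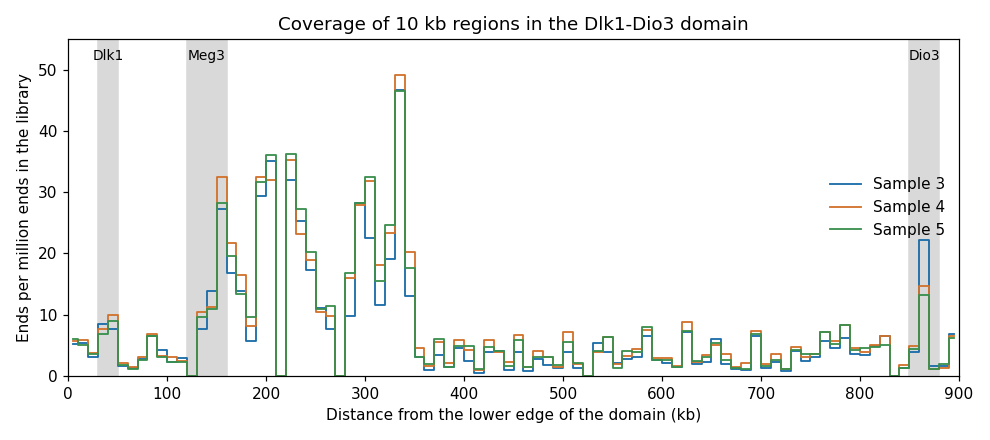
Ends per 1000000 ends of the library (y axis) in each 10 kb region of the domain, by distance from its lower edge in kb (x axis), for Samples 3, 4 and 5. Grey bands mark the Dlk1, Meg3 and Dio3 windows, and the 3 lines rise together over the 210 kb block that begins in the Meg3 window, with a lone peak in the Dio3 window.

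Regions were ranked by their smallest share of ends over the 3 libraries. The first was chr12:110980000-110989999, near the upper end of the block, with 874, 844 and 820 ends in Samples 3, 4 and 5, or 47.4 ± 1.5 per 1000000 ends of the library (SD, n = 3). It was followed by chr12:110850000-110859999 with 659, 551 and 636 ends and by chr12:110870000-110879999 with 598, 605 and 638 ends. The order of these last regions differed between the libraries, and their means of 34.4 ± 2.1 and 34.4 ± 2.2 per 1000000 did not differ beyond their spread. The region chr12:110840000-110849999 had 550, 559 and 558 ends, and chr12:110940000-110949999 had 528, 480 and 498 ends. These 5 lay between Meg3 and Dio3. By mean share, chr12:110800000-110809999 in the Meg3 window, with 512, 558 and 498 ends, would stand above the last of them. So would chr12:110950000-110959999, with 423, 547 and 573 ends.

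Beyond the block, coverage fell sharply. The 50 kb region chr12:110950000-110999999 held 2119, 2449 and 2410 ends, and its upper neighbour chr12:111000000-111049999 held 253, 339 and 303. From there to the Dio3 window no region was highly covered in any library. In 5 of the 90 regions there was no end in any library, among them the first 10 kb of the Meg3 window and 2 regions inside the block. The profile was otherwise alike in the 3 libraries, with Pearson correlations across the 90 regions, on the log2(ends + 1) scale, of 0.99 for each pair of libraries. Regions are not independent replicates and share the same HindIII sites and captured fragments.

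The windows themselves differed in coverage. The Dlk1 window had 304, 304 and 281 ends in the 3 libraries, of which 43.8%, 49.3% and 50.2% fell in the kilobase chr12:110696000-110696999. The Meg3 window had 917, 928 and 859 ends, of which 29.8%, 30.0% and 26.0% fell in chr12:110804000-110804999, inside the block. The Dio3 window had 517, 357 and 329 ends, and 73.5%, 65.5% and 67.2% of these fell in chr12:111513000-111513999. No end was found in any library in 10 of 20 kilobases of the Dlk1 window, 29 of 40 of the Meg3 window and 22 of 30 of the Dio3 window.

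A smaller share of ends was joined to other chromosomes (in trans) in the domain than elsewhere on chromosome 12. The trans share of the domain's ends was 46.7% in Sample 3, 59.6% in Sample 4 and 66.0% in Sample 5, against 56.3%, 70.4% and 74.3% for ends on the rest of the chromosome. Over all ends of the library it lay between these, at 52.0%, 67.4% and 71.6%. The ratio of the domain's share to that of the rest of the chromosome was 0.855 ± 0.031 (SD, n = 3). It lay below 1 in 3 of 3 libraries (exact two-sided sign-flip permutation test over libraries, p = 0.25). Coverage was not matched in this comparison. The exact test over 3 libraries cannot go below p = 0.25, so no such comparison could pass a threshold, and results are given by their size and the number of libraries that show them.

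Counted by di-tags, 829 of Sample 3 had both ends in the domain, 1604 of Sample 4 and 1343 of Sample 5. This was 7.55% of the domain's di-tags in Sample 3 (7.06 to 8.06), 14.8% in Sample 4 (14.1 to 15.5) and 12.2% in Sample 5 (11.6 to 12.8). Sample 3 stood apart. It had 3927 di-tags that joined the domain to chromosome 12 beyond the 1 Mb flanks, or 35.8%, whereas Sample 4 had 1088 (10.0%) and Sample 5 had 938 (8.51%). The same difference was seen over the whole library, where the median distance between the ends of a cis di-tag was 3596 kb in Sample 3, 172 kb in Sample 4 and 155 kb in Sample 5. Its part in the values of the domain was not tested. Of the far cis di-tags, 1212, 299 and 245 in Samples 3, 4 and 5 reached 1 to 10 Mb below the domain and 974, 206 and 193 reached the same distances above it. The surplus of Sample 3 thus lay on both sides.

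The cis ends of the domain were spread over other distances than those of the rest of chromosome 12. Distances under 10 kb made up 4.53%, 15.2% and 17.1% of the domain's cis ends in Samples 3, 4 and 5, against 7.33%, 23.3% and 25.5% on the rest of the chromosome, a ratio of 0.647 ± 0.027 (SD, n = 3). Distances from 100 kb to 1 Mb made up 20.8%, 37.6% and 34.9%, against 19.4%, 24.4% and 23.2%. The ratio of this class was 1.07 in Sample 3, 1.54 in Sample 4 and 1.5 in Sample 5. Read strands were mostly equal at short range, with 78.3%, 78.6% and 74.7% of the domain's di-tags under 10 kb having both reads on the same strand, against 70.5%, 74.4% and 74.7% on the rest of the chromosome. At 10 kb and over the domain had 50.5%, 50.8% and 50.4%. Ends over 10 Mb apart were less frequent in the domain, at a ratio of 0.775 in Sample 3, 0.639 in Sample 4 and 0.653 in Sample 5. The domain lies near the distal end of its chromosome, and its position was not matched in this comparison.

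**Figure D2:**
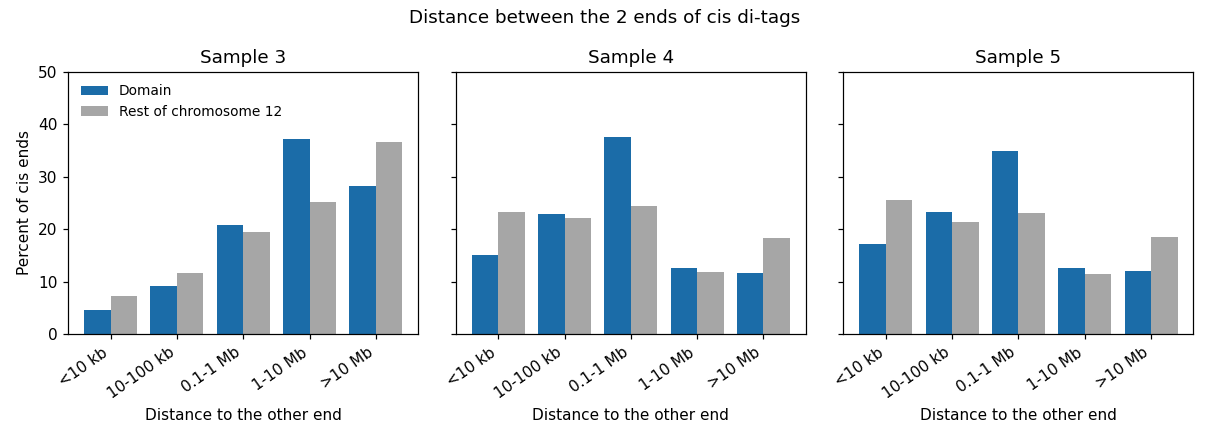
Percent of cis ends (y axis) in 5 classes of distance to the other end (x axis), for ends in the domain (blue) and on the rest of chromosome 12 (grey), in each library. Sample 3 has 37.2% of the domain's cis ends at 1 to 10 Mb, whereas Samples 4 and 5 have 12.6% each.

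The domain's trans partners were scattered. Sample 3 had 5516 trans di-tags that reached 5360 different 10 kb regions, Sample 4 had 7424 that reached 7199 and Sample 5 had 8171 that reached 7914. No region was reached more than 4 times in a library. Over 19 chromosomes (Y and the mitochondrial genome left out), the count relative to that expected from each chromosome's trans ends lay between 0.685 and 1.22 in Sample 3, whereas Sample 4 kept to 0.863 to 1.17 and Sample 5 to 0.903 to 1.13. For 4 chromosomes it was above 1 in every library and for 5 below, and for none did the 95% exact Poisson interval leave 1 on the same side in all 3.

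Contacts within the domain were then set against an expected count. This count was made from the shares of all ends that the 2 regions held and from the decline of contacts with distance over all chromosomes in the same library. It did not allow for the smaller trans share of the domain's ends beside the whole library, given above. The part of that smaller share in the ratios below was not tested. Over the whole genome, pairs up to 2 Mb apart with both regions highly covered reached only 0.709, 0.65 and 0.662 of this count in Samples 3, 4 and 5, whereas pairs with 1 such region reached 1.22, 1.18 and 1.18. Each value was therefore also computed with a distance curve of its own for pairs with 0, 1 or 2 highly covered regions. This is called expected by class here.

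The domain taken whole had fewer contacts with itself than expected, and the shortfall lay in the pairs within the block. The observed count over the expected was 0.698, 0.694 and 0.637 in Samples 3, 4 and 5, or 0.820, 0.845 and 0.783 by class. Within the block the ratio was lower, with 270, 661 and 585 di-tags at 0.343, 0.391 and 0.362 of the expected count and 0.481, 0.569 and 0.516 by class. All other pairs of regions in the domain held 559, 943 and 758 di-tags, at 1.40, 1.52 and 1.54 times the expected count and 1.24, 1.28 and 1.31 times by class. Most of these di-tags had 1 end in the block. With no end in it, contacts of the interval above the block with itself numbered 80, 193 and 174, at 1.1, 1.11 and 1.23 times the expected count, and by class at 0.996, 0.915 and 1.02 times with intervals that all held 1. Contacts between the block and the rest of the interval up to Dio3, which are among these pairs, exceeded the expected count in every library. They numbered 261, 391 and 291, at 1.83, 1.89 and 1.80 times the expected count and 1.51, 1.62 and 1.54 times by class. The spread between libraries was small beside the departures from 1 within the block and from the block to that rest (mean 0.522 ± 0.045 and 1.55 ± 0.06 by class, SD, n = 3). The block was delimited by its coverage, from which the expected count is also made. Whether the 3 classes take out this dependence was not tested.

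**Figure D3:**
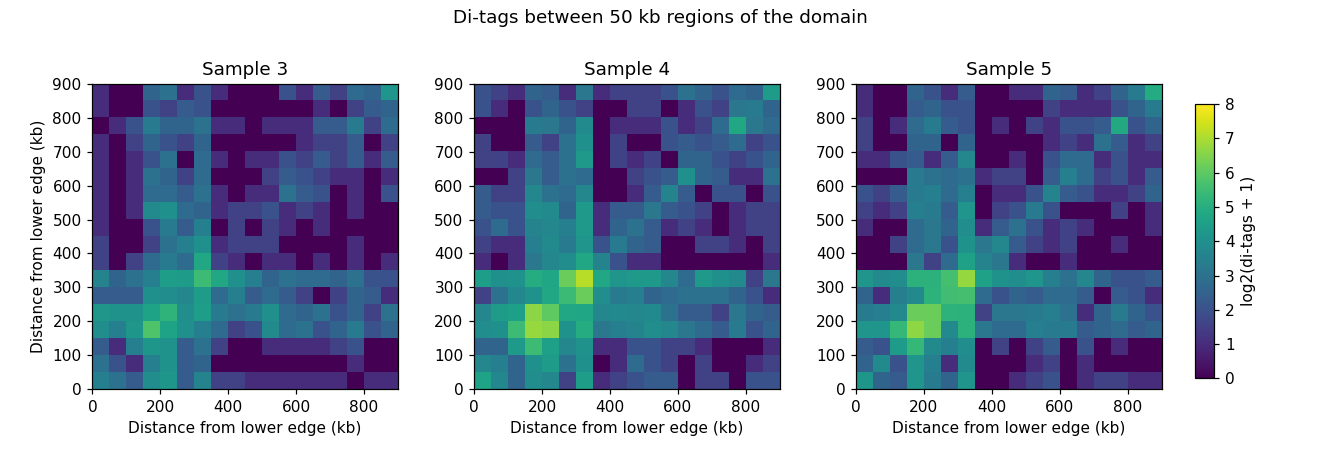
Di-tags between 50 kb regions of the domain in each library, as log2(di-tags + 1) by colour, with the distance of each region from the lower edge in kb on both axes. The block near 150 to 350 kb has the highest counts, and rows of counts run from it across the rest of the domain in all 3 libraries. The counts are not corrected for coverage, by which the block was delimited. Within the block they lay below the expected count in every library.

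Dlk1 and Meg3 lie near each other and were joined by few di-tags. There were 3 in Sample 3, 4 in Sample 4 and 4 in Sample 5, where 3.98, 4.91 and 3.43 were expected. The sum of 11 was 0.893 of the expected count (95% exact Poisson interval 0.446 to 1.60), so neither a lack nor an excess of Dlk1-Meg3 contacts was detectable at this depth. The exact sign-flip permutation test over libraries gave p = 0.5.

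Contacts with Dio3 from either anchor were rarer still. Between Dlk1 and Dio3 there were 0, 2 and 0 di-tags, with 0.433, 0.217 and 0.151 expected. Between Meg3 and Dio3 there were 1, 2 and 0, with 1.47, 0.819 and 0.564 expected. A count of 0 allows up to 3.69 di-tags in a library (upper 95% Poisson limit), which exceeds every one of these expected counts. The sums over the libraries, 2 and 3 di-tags, gave ratios of 2.50 (0.302 to 9.02) and 1.05 (0.217 to 3.07), so the depth did not resolve these contacts.

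The wider intervals between the genes gave larger counts. From the 70 kb between Dlk1 and Meg3, 47, 97 and 58 di-tags reached the interval between Meg3 and Dio3. These were 1.35, 2.44 and 1.96 times the expected count, and 1.14, 2.07 and 1.67 times by class, above 1 in 3 of 3 libraries. In Sample 3 the 95% Poisson interval of 0.991 to 1.79 still held 1. Of the 7 regions of 10 kb in this stretch none was highly covered in any library. With the part of the interval above the block alone, this stretch had 3, 18 and 5 di-tags, at 0.596, 3.31 and 1.35 times the expected count, and the libraries did not lie on the same side of 1.

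Dio3 was joined to the interval on its lower side in 33, 36 and 32 di-tags, at 1.18, 1.57 and 1.91 times the expected count. By class the ratios were 1.17, 1.56 and 1.92, with a mean of 1.55 ± 0.37 (SD, n = 3). Sample 3 was again the lowest, and its interval of 0.811 to 1.66 held 1. Dlk1 was joined to the same interval in 24, 28 and 24 di-tags, at 1.11, 1.12 and 1.24 times the expected count (1.12, 0.957 and 1.07 by class), and all 3 intervals held 1. Meg3 was joined to it in 63, 137 and 113 di-tags, at 0.513, 0.714 and 0.758 times the expected count, with all 3 intervals below 1. By class these ratios were 0.681, 0.949 and 0.985, and only the interval of Sample 3 did not hold 1. Differences between the anchors were not tested.

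Where the interval was counted above the block alone, all 3 genes had ratios above 1 in every library. Dlk1 had 6, 7 and 8 di-tags at 1.74, 1.85 and 2.99 times the expected count (1.60, 1.61 and 2.67 by class), and only the interval of Sample 5 did not hold 1. Meg3 had 22, 37 and 28 at 1.69, 2.35 and 2.51 times (1.39, 2.08 and 2.22 by class), with all 3 intervals above 1, though by class that of Sample 3, 0.872 to 2.11, held 1. Dio3 had 20, 28 and 24 at 1.28, 1.84 and 2.23 times (1.08, 1.59 and 1.93 by class), and the interval of Sample 3, 0.783 to 1.98, held 1 here too (0.662 to 1.67 by class).

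The contacts of each anchor were compared between the 500 kb on its lower and on its higher side. Dlk1 had 10, 23 and 13 di-tags on its lower side and 31, 40 and 28 on its higher side, with every ratio to the expected count having an interval that held 1. Dio3 had on its lower side the 20, 28 and 24 di-tags given above, since these 500 kb are the interval above the block. On its higher side it had 24, 17 and 19, at 0.657, 0.767 and 1.1 times. Meg3 had 42, 53 and 52 di-tags on its lower side, at 1.33, 1.30 and 1.76 times, and 55, 128 and 105 on its higher side, at 0.463, 0.681 and 0.717 times, or 0.626, 0.913 and 0.939 times by class. The higher side of Meg3 takes in both the rest of the block, where ratios were low, and part of the interval above it, where those of Meg3 were above 1.

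The domain was joined more often to the flank of lower coordinates than to that of higher coordinates. With the lower 1 Mb it shared 452 di-tags in Sample 3, 514 in Sample 4 and 385 in Sample 5, at 1.15, 1.44 and 1.36 times the expected count. With the higher 1 Mb it shared 256, 223 and 191, at 0.522, 0.788 and 0.851 times. No 95% Poisson interval of these 6 ratios held 1. By class the lower ratios were 1.13, 1.46 and 1.39 and the higher ones 0.520, 0.806 and 0.877, and the interval of the last, 0.757 to 1.01, held 1. The lower ratio was 2.20, 1.82 and 1.60 times the higher one, and 2.17, 1.82 and 1.58 times by class, above 1 in every library (p = 0.25 by the exact sign-flip permutation test). The block alone shared 105, 89 and 100 di-tags with the higher flank, at 0.434, 0.752 and 1.03 times the expected count and 0.460, 0.926 and 1.26 times by class. For the block the ratio was thus below 1 in Samples 3 and 4 and above 1 in Sample 5. The interval of Sample 5, 0.838 to 1.25, held 1. By class that of Sample 4, 0.743 to 1.14, held 1, whereas that of Sample 5 was 1.02 to 1.53. With the lower flank the block shared 282, 310 and 232, at 1.09, 1.32 and 1.22 times. There the interval of Sample 3, 0.971 to 1.23, held 1.

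**Figure D4:**
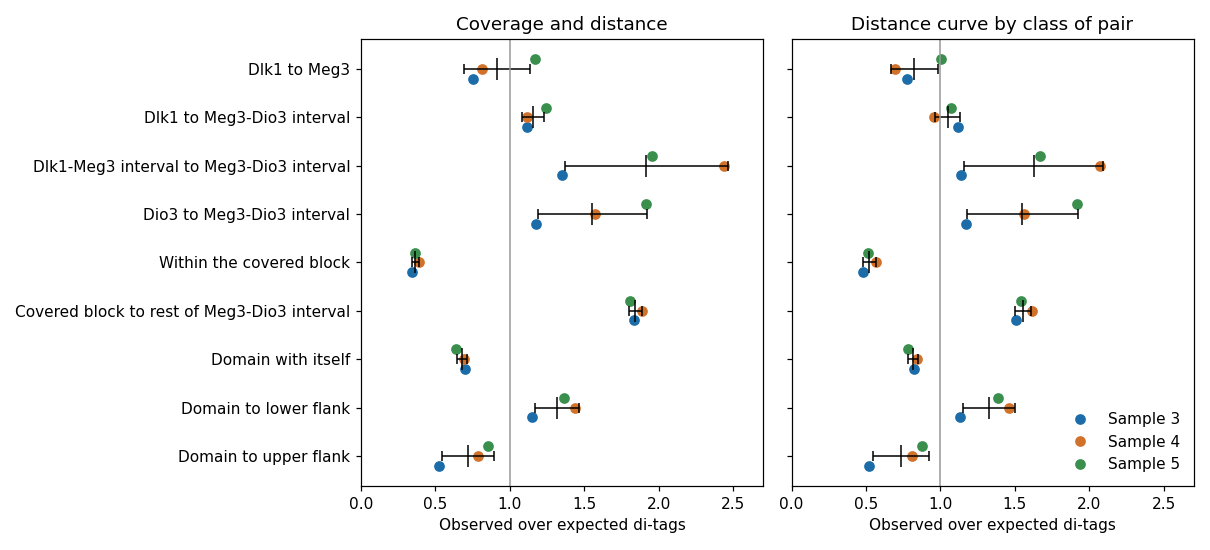
Observed over expected di-tags (x axis) for contacts of the domain's genes, intervals, block and flanks (y axis), with 1 point for each library and black bars for the mean ± SD of the 3, against coverage and distance (left) and with a distance curve by class of pair (right). The lower flank lies above 1 and the upper flank below 1 in every library on both scales.

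To find where contacts thinned out, di-tags that joined the 100 kb on either side of a boundary were counted every 10 kb. At the lower edge of the domain the ratio to the expected count was 0.934, 1.23 and 1.15 in Samples 3, 4 and 5, and at its upper edge it was 1.1, 0.959 and 0.885. Neither edge departed from 1 in the same direction in all libraries. Inside the domain the mean ratio ran from 0.369 to 1.71 over 91 boundaries, and from 0.531 to 1.49 by class, with its lowest values inside the block. The boundary with the lowest, 110890000, was crossed by 52, 117 and 113 di-tags, against 14, 28 and 19 at the lower edge of the domain. The expected counts there are made from the coverage that delimited the block. Leaving out boundaries within 100 kb of the block, the lowest mean was at position 111650000, 100 kb above the domain on the far side of Dio3. There 11, 10 and 3 di-tags crossed, at 0.463, 0.519 and 0.177 of the expected count (mean 0.386 ± 0.183, SD, n = 3). This position was picked as the lowest of those scanned, so no test is given.

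**Figure D5:**
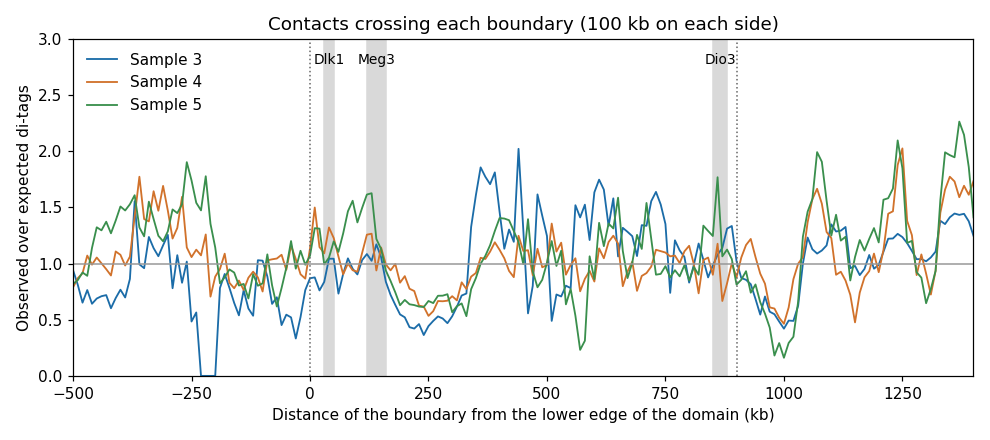
Observed over expected di-tags by class (y axis) that cross each boundary, with 100 kb counted on either side, by distance of the boundary from the lower edge of the domain in kb (x axis). Dotted lines mark the domain's edges and grey bands the gene windows, and the 3 libraries dip together inside the block and near 1000 kb, above Dio3.

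Single pairs of 10 kb regions were tested with a cumulative binomial test against coverage and distance, for pairs 20 kb to 2 Mb apart with at least 2 di-tags and with Benjamini-Hochberg adjustment over all such pairs of covered regions. In a simulation of Sample 3 this test recovered none of the pairs given 2 or 3 extra di-tags and 82% of those given 5, so weak contacts were beyond it. Only pairs of low expected count were given extra di-tags. Recovery was not measured for pairs like chr12:110850000-110859999 with chr12:110870000-110879999 in the block, where 17.4 di-tags were expected in Sample 3. No pair inside the domain, of 3491 tested in each library, reached an adjusted p under 0.05, and none with a single end in it. Over the whole library 52 pairs were called in Sample 3 (0.000117% of those tested), 111 in Sample 4 (0.000249%) and 153 in Sample 5 (0.000342%), so calls were rare everywhere. Before adjustment, 39, 79 and 63 pairs of the domain had p under 0.05, or 1.12%, 2.26% and 1.80% of those tested, against 0.191%, 0.154% and 0.128% over the whole library. A pair needed at least 2 di-tags to count, which 116, 218 and 179 pairs of the domain had, and the part of the domain's higher coverage in these shares was not tested.

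With coverage alone as the expectation, so that the closeness of 2 regions was not taken out, 114, 217 and 177 pairs were called inside the domain, or 3.27%, 6.22% and 5.07% of its pairs. These were nearly all of its 116, 218 and 179 pairs with at least 2 di-tags, so the call added little to that minimum. The background was 0.474% of all pairs in Sample 3, 0.353% in Sample 4 and 0.276% in Sample 5. The domain's regions also had 1.94 times as many ends as the mean covered region, and the part of this coverage in the count was not tested. In every library the same 29 pairs inside the domain were called, of which 23 had both regions in the block and 4 were at least 100 kb apart. The farthest joined chr12:110650000-110659999, at the lower edge of the domain and below Dlk1, with the most covered region chr12:110980000-110989999, in 2, 3 and 2 di-tags. Distance and coverage together predicted 0.560, 0.535 and 0.467 for this pair, which was singled out after its values were seen. The shared pair with the highest smallest count, chr12:110850000-110859999 with chr12:110870000-110879999, had 5, 10 and 9 di-tags, where 17.4, 28.6 and 30.6 were predicted. Most of the 29 lay below their prediction in every library. A few, the farthest pair among them, lay above it in every library. The number of pairs called in every library over the whole genome is not given here to set beside the 29.

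Di-tags of the domain had more copies than others. With duplicates retained there were 104170 lines for the domain in Sample 3, 91753 in Sample 4 and 85993 in Sample 5, or 9.49, 8.45 and 7.80 lines for each one kept. Over the rest of the library this was 7.24, 5.72 and 5.20, so the domain's di-tags had 1.43 ± 0.10 times (SD, n = 3) as many copies, above 1 in 3 of 3 libraries. The most copied had 137, 100 and 69 copies. Cis contacts within the domain had more copies (10.6, 9.75 and 8.93) than its trans contacts (9.48, 8.34 and 7.68) in each library. Samples 3 and 5 shared 1 identical di-tag of the domain, and no other pair of libraries shared any.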

How the data were processed

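Per the labels and the study's methods, the authors fixed cells with formaldehyde, cut chromatin with HindIII, filled the ends with biotin, ligated and captured them, and processed the reads with HiCUP. The submitters' processing notes name Bowtie 1.1.0 and mm9. The authors deposited lists of di-tags with duplicates retained and removed, whose values are positions and strands, so the measure is the number of lines. The lists with duplicates removed hold 9376907, 8596799 and 8821161 di-tags.

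Ends were counted in 10 kb regions with Python 3.11.15, numpy 2.4.6 and scipy 1.17.1. Expected counts used each region's share of ends and the distance curve of its library. The calling test was checked in a simulation of Sample 3 with 44552515 pairs tested. Sets of 50 pairs were given 2, 3, 5 or 10 extra di-tags, and 0%, 0%, 82% and 100% were recovered, with 3 other calls. These pairs all had low expected counts, lower than those of many pairs in the block. Named regions were the 5 with the highest smallest share over libraries. No pair was called, so none could be named by the planned rule. The domain, its genes and the comparisons were chosen with earlier results of these data known, and the expectation by class was added after seeing the data. Nothing in the labels names separate cultures, so the spread between libraries may be technical.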

Additional observations from a re-analysis of the deposited data

How the results depend on the processing

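Leaving out Dlk1-Dio3 and Meg3-Dio3 contacts, whose SD over libraries exceeded their value so that moves within it show no stability, 86 of 108 values recomputed for 13 results moved by less than the SD or kept their count. The cause of the other moves was not tested. A mean without 1 library cannot move by the SD of all 3, so such values could only count as unmoved. The list with 1 copy of each distinct di-tag was nearly the main list, with 10976 of 10980 domain di-tags in Sample 3. With duplicates retained, the domain's share of di-tags was 0.176% against 0.123%, and a mean of 210.7 pairs per library was called in the domain against 0, or 5.53%, 6.76% and 5.81% of its pairs in Samples 3, 4 and 5, where the whole library had 1.0%, 0.683% and 0.580%. With coverage alone as expectation this mean was 169.3. Calls stayed at 0 with 1 copy of each distinct di-tag, coverage from trans ends, the curve of chromosome 12, an adjusted p under 0.001, at least 3 di-tags, regions of 20 kb, and without each library. Of these, the stricter p, the higher minimum of di-tags and leaving out a library could give nothing but 0.

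With duplicates retained, coverage from trans ends, the curve of chromosome 12 and the expectation by class in turn, the mean ratio to the expected count was 0.468, 0.759, 0.591 and 0.816 for the domain with itself (0.676 in the report), 0.286, 0.404, 0.318 and 0.522 within the block (0.365), 1.86, 1.74, 1.31 and 1.28 for the domain without these pairs (1.49), and 2.36, 2.06, 1.62 and 1.55 from the block to the interval above it (1.84). No mean of these crossed 1. The block, the expectation by class and all alternatives for contacts other than those between the gene windows were added after seeing the data. With coverage from trans ends, contacts of the region between Dlk1 and Meg3 with that between Meg3 and Dio3 had a mean ratio of 2.59 against 1.92, and contacts with the lower flank 1.49 against 1.32, which with the curve of chromosome 12 was 1.16.

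The mean Dlk1-Dio3 ratio of 3.07 rests on the 2 di-tags of Sample 4, and was 0 without it and 4.60 without either other library. It was 0.696 with duplicates retained and 2.01 with windows widened by 10 kb. The mean Meg3-Dio3 ratio of 1.04 ran from 0.339 without Sample 4 to 1.56 without Sample 5, and was 2.35 with duplicates retained. No paired analysis was possible because all libraries form 1 group.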
